A study of Homo sapiens with 6 samples.

Results

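The tumour necrosis factor (TNF) ligand superfamily and the matching receptor superfamily were followed in the line RPMI-8402, grown from a human acute lymphoblastic leukaemia of T cells, after guide RNAs against MYC had been switched on. Members were taken by name from the deposited table of all genes: symbols of the form TNFSF or TNFRSF with a number and at most 1 further letter, and FAS, FASLG, CD27, CD40, CD40LG, CD70, LTA, LTB, LTBR and TNF. This gave 62 gene identifiers under 42 symbols, of 63677 identifiers in the count table. TNF, LTA and LTB each had several identifiers (8, 7 and 8), of which 1 each held counts, and 20 identifiers, all at 0 counts, were not in the primary assembly annotation of GENCODE 29. The 42 symbols comprised 17 ligands, 6 receptors with a death domain, 15 receptors that bind TRAF adaptors and 4 decoy receptors.

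The DOX group was 3 samples of RPMI-8402 cells that stably carried Cas9 and received doxycycline for 72 hours, which induced the guide RNAs against MYC. The DMSO group was 3 samples of the same Cas9-carrying cells given the solvent, and both groups are labelled MYC_KO in genotype. The doxycycline dose, the guide sequences and whether the cells were 1 clone are not stated in the sources used here, and no group received doxycycline without guides, so the drug and the guides cannot be told apart. The labels do not say whether replicates came from separate cultures, and p-values therefore measure a spread among samples that may be technical.

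Ligands of this superfamily act as trimers, on the cell surface or after release by proteases, and bind receptors whose outer part is built of cysteine-rich repeats. Death domain receptors such as FAS recruit FADD or TRADD and can activate caspase-8, whereas most other receptors bind TRAF proteins and signal to NF-kappaB and MAP kinases. Decoy receptors bind ligand without passing on a death signal. In T cells these proteins serve costimulation, help to B cells and deletion of activated cells.

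Total counts were 25819386 to 26214598 in DOX samples and 23121255 to 25412493 in DMSO samples, and genes with any count numbered 23932 to 24573 in DOX samples and 23188 to 23310 in DMSO samples. MYC itself was not lower in the DOX samples, at 440 ± 16.0 CPM in DOX and 413 ± 8.01 CPM in DMSO (SD, n = 3 each; edgeR adjusted p = 0.160). It passed as higher with upper-quartile scaling, by 0.14 on the log2 scale (edgeR adjusted p = 0.0357), and under scaling by library size by 0.14 (0.0281). Those scalings also moved the median log2 fold change of all tested genes, to 0.05 and 0.04. Levels are given as CPM, a gene's counts relative to the library total, scaled by TMM. Counts over a whole gene do not show a cut at a guide's site, so MYC checks the labels only in part. Of 10 T cell markers 9 passed the filter on low counts, with CD3E at 945 CPM in DOX and 976 CPM in DMSO. Of these 9, CD5 and CD7 rose and CD3G fell, and the 10 summed to 2375 to 2494 CPM in DOX samples and 2357 to 2455 CPM in DMSO samples. With transcript GC content and length corrected, CD3G no longer passed (-0.07 on the log2 scale, edgeR adjusted p = 0.259) and CD2 passed as higher (0.19, 0.0269). In bulk RNA, fewer cells of a type and less RNA per cell cannot be told apart.

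Of the 42 members, 34 had at least 1 count in some sample, 18 passed the filter on low counts and were tested, and 8 had 0 counts in every sample. All 18 tested members stood above the filter's 0.390 CPM in all 3 DOX samples and in all 3 DMSO samples, so none passed through 1 group alone. Expression was concentrated in a few genes. The 34 members together held 713 to 741 CPM in DOX samples and 694 to 728 CPM in DMSO samples, and 75.7 to 76.7% of that in DOX samples and 76.2 to 78.4% in DMSO samples came from TNFSF10, CD40LG and TNFRSF1A. Levels between genes were compared as CPM per kilobase of exon, with lengths from GENCODE 29, whose gene models differ from those behind the counts, so the order is approximate.

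On that scale CD40LG, the CD40 ligand by which helper T cells activate B cells, stood first, at 92.5 ± 4.41 in DOX and 86.1 ± 11.8 in DMSO. TNFSF10, the death ligand TRAIL, stood next, at 79.0 ± 2.13 in DOX and 82.0 ± 0.766 in DMSO. The 3 CD40LG values lay above the 3 TNFSF10 values in DOX, whereas in DMSO they overlapped, with CD40LG at 80.2, 78.4 and 99.8 CPM per kilobase and TNFSF10 at 81.6, 82.9 and 81.5. TNFRSF1A, the main receptor for soluble TNF, followed at 28.4 ± 0.360 in DOX and 26.4 ± 1.21 in DMSO. TNFRSF8, the lymphocyte activation receptor CD30, was at 16.0 ± 0.0491 in DOX and 18.7 ± 0.746 in DMSO (SD, n = 3 each, throughout). LTB, TNFRSF21, TNFRSF4, TNFRSF10B, TNF and TNFRSF13C came next, between 1.72 and 12.4 CPM per kilobase in group means, and the other 8 tested members were all below 1.

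**Figure D1:**
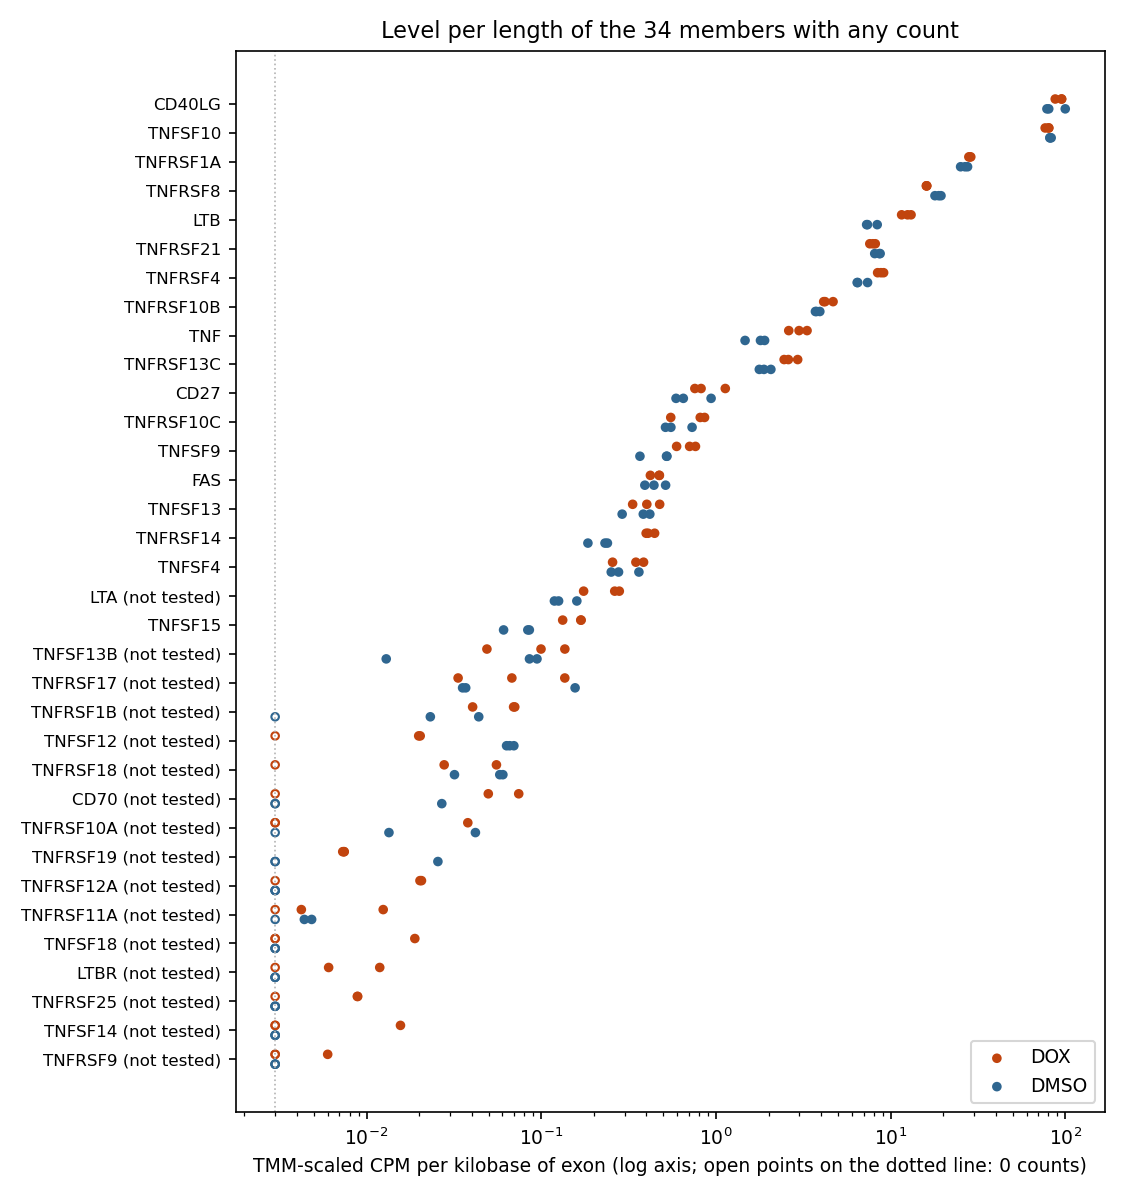
TMM-scaled CPM per kilobase of exon (log axis) in each sample for the 34 members with any count, DOX above DMSO in each row; open points on the dotted line are samples at 0 counts. CD40LG and TNFSF10 stand highest, with samples from 76.6 to 99.8, and the members marked as not tested lie below 0.3.

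In the DOX samples 7 superfamily genes rose and 1 fell. The ligands LTB, TNF and TNFSF15 rose by 1.61-, 1.73- and 2.02-fold, and the receptors TNFRSF14, TNFRSF13C, TNFRSF4 and TNFRSF10B by 1.91-, 1.40-, 1.30- and 1.14-fold. TNFRSF8 fell, at 0.857 of its DMSO level. The calls are at an adjusted p under 0.05 by edgeR's quasi-likelihood test, adjusted over all 15492 genes tested. Across all tested genes 13.8% were called higher and 15.5% lower, against 38.9% higher and 5.56% lower among the 18 tested members. The median log2 fold change was 0.25 over the tested members and -0.00072 over all tested genes. The groups did not overlap for 11 of the 18, 9 higher and 2 lower, or 61.1%, where 41.7% of all tested genes did not overlap (20.7% higher, 21.0% lower). The authors' deposited table had 6 of the 18 as higher and 1 as lower at an adjusted p under 0.05, where 9.79% and 15.6% of all genes with an adjusted p did, and all 7 were also called by edgeR, TNFRSF10B being the member that edgeR alone called.

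Low levels carry a background of their own in these data. Of 3477 genes with a mean under 2 CPM, 9.89% were called higher and 0.978% lower, with a median log2 fold change of 0.17. From 5 to 20 CPM, 17% of 2999 genes were called higher and 12.5% lower, with a median of 0.00020, and from 20 to 100 CPM 13.1% were higher and 25.1% lower. Among members, 8 had a mean under 2 CPM and 2 of them rose (TNFRSF14 and TNFSF15), while 3 had a mean of 5 to 20 CPM and all 3 rose (LTB, TNFRSF4 and TNFRSF13C). TNF, between 2 and 5 CPM, also rose, in a range where 17.3% of genes were called higher and 3.04% lower. From 20 to 100 CPM, 1 of 3 members rose (TNFRSF10B) and 1 fell (TNFRSF8). Above 100 CPM 0 of 3 members were called, where 14.8% of 2382 genes were called higher and 28% lower. TNFRSF8, at -0.22, lay inside the range of most genes near its level, whose 10th percentile was -0.26. DOX libraries also had more genes with counts than DMSO libraries, as given above, and the part of this in the rises at low level was not tested.

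**Figure D2:**
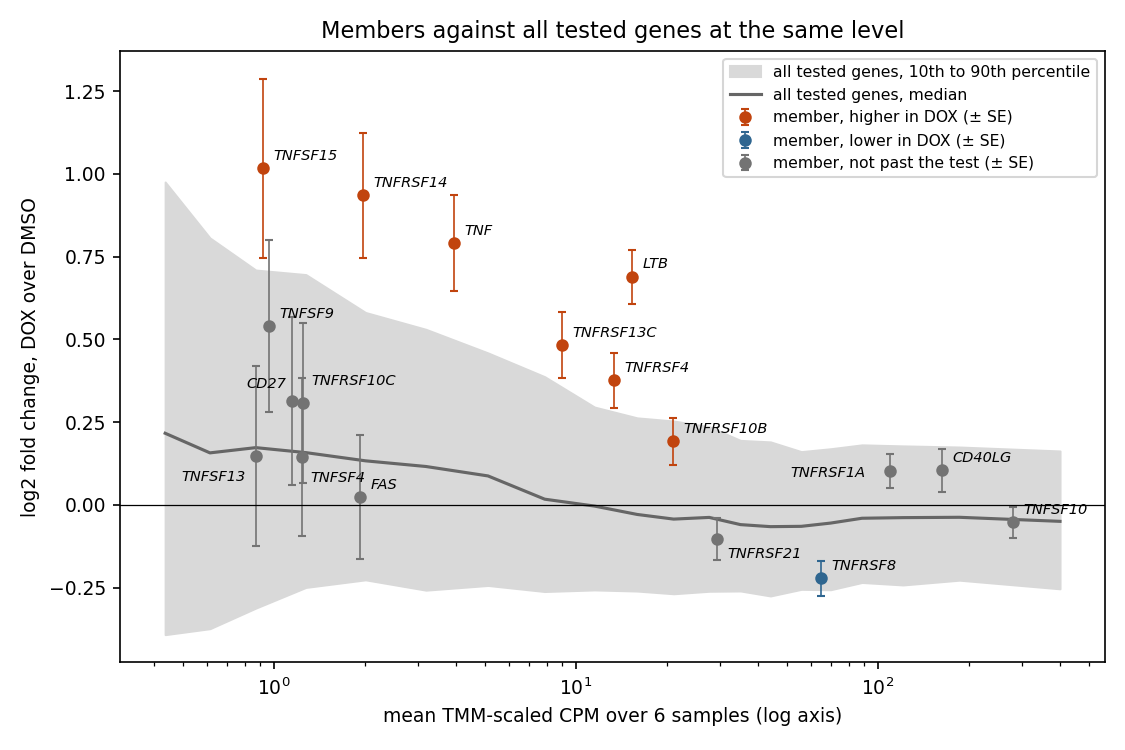
Log2 fold change of DOX over DMSO against mean CPM over 6 samples (log axis) for the 18 tested members, with SE, over the median and the 10th to 90th percentile of all tested genes at that level. The band of all genes is wider at low levels, where its median and upper edge are higher. TNFSF15, TNFRSF14, TNF, LTB, TNFRSF13C and TNFRSF4 lie above it, and the called members TNFRSF10B and TNFRSF8 lie within it.

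LTB, lymphotoxin beta, anchors the membrane-bound lymphotoxin trimer that organises lymphoid tissue. It stood at 19.2, 17.7 and 20.1 CPM in DOX replicates 1, 2 and 3, against 11.3, 12.8 and 11.2 CPM in DMSO replicates 1, 2 and 3. Every DOX sample was above every DMSO sample, and LTB rose by 0.69 on the log2 scale (standard error, SE, 0.082; edgeR adjusted p = 1.24e-06). TNF, the founding inflammatory cytokine of the family and a neighbour of LTB in the major histocompatibility complex, stood at 5.01, 5.57 and 4.37 CPM in DOX, against 2.46, 3.18 and 3.01 CPM in DMSO. Its groups did not overlap either, with a log2 fold change of 0.79 (SE 0.14, edgeR adjusted p = 0.000227). LTA, lymphotoxin alpha, lies beside TNF in the same cluster and did not pass the filter on low counts. It had 8, 12 and 13 counts in DOX and 7, 5 and 5 in DMSO, and with no filter its log2 fold change was 0.80 (SE 0.47, edgeR adjusted p = 0.324).

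TNFSF15, the cytokine TL1A that costimulates T cells through TNFRSF25, had 35, 35 and 28 counts in DOX, against 17, 16 and 11 in DMSO. The lowest DOX sample was above the highest DMSO sample, at a level of 1.24 ± 0.165 CPM in DOX and 0.605 ± 0.108 CPM in DMSO (SD, n = 3 each). Its log2 fold change was 1.02 (SE 0.27, edgeR adjusted p = 0.00594), on counts near the lowest among tested members.

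TNFRSF14, the herpesvirus entry mediator HVEM, which binds TNFSF14 and LTA and the inhibitory receptor BTLA, stood at 2.77, 2.48 and 2.54 CPM in DOX, against 1.15, 1.49 and 1.44 CPM in DMSO. The groups were well apart, with a log2 fold change of 0.93 (SE 0.19, edgeR adjusted p = 0.000573). An antisense gene, TNFRSF14-AS1, covers 13.4% of its exon bases and held a mean of 1.67 counts in DOX and 0 in DMSO. TNFRSF13C, the BAFF receptor needed for B cell survival, stood at 11.6, 9.68 and 10.2 CPM in DOX, against 8.13, 6.98 and 7.42 CPM in DMSO. It did not overlap between groups and rose by 0.48 on the log2 scale (SE 0.10, edgeR adjusted p = 0.000732).

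Because TNFRSF13C is best known from B cells, B cell markers are given beside it. Of 5 such markers, 3 passed the filter, 1 of these rose (CD79A, by 0.96 on the log2 scale), and 0 were called lower. The other tested markers differed in direction, with CD79B at 0.11 (SE 0.12, edgeR adjusted p = 0.542) and PAX5 at -0.46 (SE 0.23, edgeR adjusted p = 0.125). MS4A1 had 0 counts in every sample. The summed level of the 5 was 11.7 to 13.2 CPM in DOX samples and 9.42 to 10.1 CPM in DMSO samples, and its part in the TNFRSF13C result was not tested. For myeloid cells, a major source of TNF, 1 of 6 markers passed the filter and rose (MPO, by 1.14 on the log2 scale), CD33 had 0 counts, and the sum was 2.17 to 2.21 CPM in DOX and 1.07 to 1.27 CPM in DMSO. Its part in the TNF result was not tested. Of 5 NK cell markers 2 passed the filter and 1 rose (NCAM1, by 0.30 on the log2 scale). With GC content and length corrected, NCAM1 was at 0.27 with an edgeR adjusted p of 0.0635. NCR1 had 0 counts, and the NK sum was 7.40 to 7.63 CPM in DOX and 6.03 to 6.16 CPM in DMSO. MPO had a mean under 2 CPM, where 9.89% of all tested genes were called higher and 0.978% lower. For CD79A, between 2 and 5 CPM, the shares were 17.3% and 3.04%. For NCAM1, between 5 and 20 CPM, they were 17% and 12.5%.

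TNFRSF4, the T cell costimulatory receptor OX40, stood at 15.7, 14.5 and 15.1 CPM in DOX, against 11.1, 12.7 and 11.1 CPM in DMSO. All 3 DOX values exceeded all 3 DMSO values, with a log2 fold change of 0.38 (SE 0.083, edgeR adjusted p = 0.00133). TNFRSF8 was the single member called lower. It stood at 60.1, 60.1 and 59.8 CPM in DOX, against 70.4, 72.5 and 67.0 CPM in DMSO. The groups were separate and the log2 fold change was -0.22 (SE 0.053, edgeR adjusted p = 0.00270).

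TNFRSF10B, the TRAIL death receptor DR5 and a known p53 target, stood at 21.3, 24.1 and 21.7 CPM in DOX, against 20.3, 19.1 and 19.4 CPM in DMSO. The lowest DOX sample lay close above the highest DMSO sample, and the log2 fold change was 0.19 (SE 0.071, edgeR adjusted p = 0.0433). This call was lost when any one of DOX replicate 2, DOX replicate 3 or the 3 DMSO replicates was left out, with edgeR adjusted p from 0.0634 to 0.229. It was also lost under DESeq2 (adjusted p = 0.138) and with no filter (edgeR adjusted p = 0.112).

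**Figure D3:**
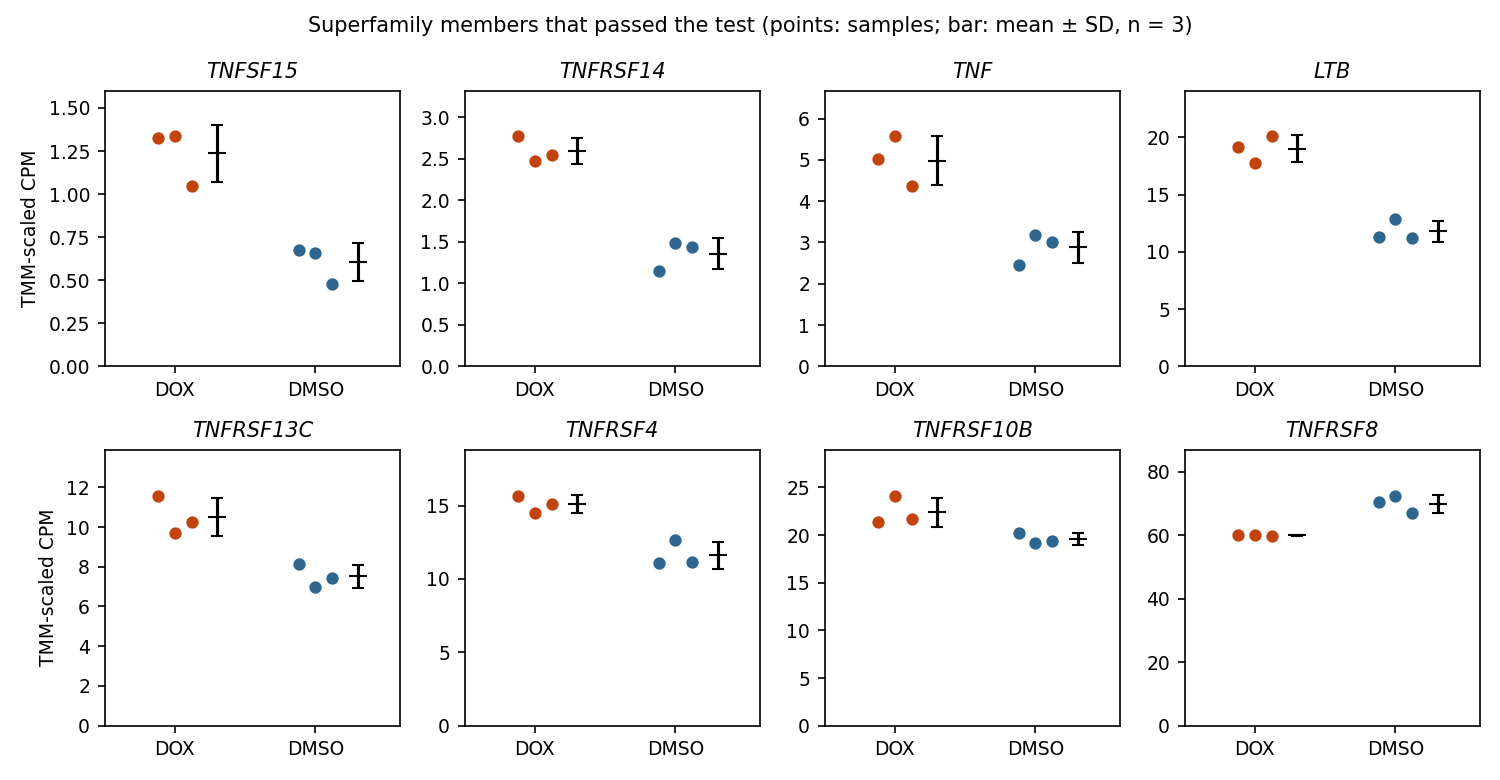
TMM-scaled CPM of the 8 members that passed the test, DOX samples left and DMSO samples right in each panel, with mean ± SD (n = 3) beside the points. In 7 panels every DOX point lies above every DMSO point, and for TNFRSF8 every DOX point, at 59.8 to 60.1, lies below the DMSO points at 67.0 to 72.5.

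Promoters of 4 of these genes are shown because LTB and TNF are neighbours that rose together, TNFRSF14 had the largest rise among receptors, and TNFRSF8 was the member that fell. For LTB the first of its listed starts is used. Each runs from 250 bases before to 50 bases after a transcription start, 5′ to 3′ on the gene's own strand, from RefSeq on GRCh38.p14, a build other than the hg19 of the counts. Capitals mark matches, on either strand, to CACGTG, the E-box core that MYC binds, to TATAAA, or to the NF-kappaB consensus motif.
LTB, chr6:31582375-31582674, minus strand: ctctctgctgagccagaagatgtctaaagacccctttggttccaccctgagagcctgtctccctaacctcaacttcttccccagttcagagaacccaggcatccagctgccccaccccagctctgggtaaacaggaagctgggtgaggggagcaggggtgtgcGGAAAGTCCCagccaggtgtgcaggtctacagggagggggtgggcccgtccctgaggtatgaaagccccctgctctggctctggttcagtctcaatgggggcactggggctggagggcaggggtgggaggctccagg
TNF, chr6:31575315-31575614, plus strand: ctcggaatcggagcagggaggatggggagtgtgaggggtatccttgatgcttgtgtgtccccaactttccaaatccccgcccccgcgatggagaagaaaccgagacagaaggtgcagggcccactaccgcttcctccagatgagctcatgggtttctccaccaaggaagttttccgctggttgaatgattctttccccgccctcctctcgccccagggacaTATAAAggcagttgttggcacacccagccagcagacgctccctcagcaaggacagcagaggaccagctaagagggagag
TNFRSF14, chr1:2556121-2556420, plus strand: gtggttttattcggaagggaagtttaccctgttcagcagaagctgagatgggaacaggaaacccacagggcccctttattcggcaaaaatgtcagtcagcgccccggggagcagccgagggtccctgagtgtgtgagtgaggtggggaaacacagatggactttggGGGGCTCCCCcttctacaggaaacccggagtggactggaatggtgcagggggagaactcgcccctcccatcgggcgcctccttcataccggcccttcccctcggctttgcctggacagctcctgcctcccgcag
TNFRSF8, chr1:12063053-12063352, plus strand: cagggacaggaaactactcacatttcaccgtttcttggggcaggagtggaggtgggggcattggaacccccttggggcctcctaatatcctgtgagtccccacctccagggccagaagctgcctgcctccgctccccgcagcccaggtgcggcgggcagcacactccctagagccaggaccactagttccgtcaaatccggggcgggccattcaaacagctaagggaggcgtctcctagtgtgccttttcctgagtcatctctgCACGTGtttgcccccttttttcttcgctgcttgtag

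The NF-kappaB match begins 87 bases before the start in LTB and 84 bases before it in TNFRSF14. TNF holds TATAAA 29 bases before its start and no match to either of the other motifs within the stretch shown. Sites that depart from the consensus or lie outside that stretch were not searched. TNFRSF8 holds CACGTG 14 bases after its start. Among 35116 promoters of the same length, 5.91% held the NF-kappaB motif, 7.26% held CACGTG and 11.5% held TATAAA; the motifs overlapped in none of the 4 sequences shown. Tested members that were not called held matches too. FAS and TNFSF13 each held the NF-kappaB motif at a listed start, 157 and 141 bases before it. TNFRSF21 held CACGTG 34 bases before its start, and TNFSF10 and TNFSF9 held TATAAA. The promoter of TNFSF15, which rose, held none of the motifs. A match describes letters and not a bound site. RefSeq promoters outside chromosome 8 were matched by symbol for 28 members. TNFRSF4, TNFRSF13C and TNFRSF10B, which also rose, were not among them, so their promoters were not searched.

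The other ligands tested did not pass. TNFSF10 stood at 279, 279 and 266 CPM in DOX, against 283, 288 and 283 CPM in DMSO. Every DOX value was below every DMSO value, yet the log2 fold change was -0.05 (SE 0.047, edgeR adjusted p = 0.431). With GC content and length corrected it was 0.16 (SE 0.039, edgeR adjusted p = 0.00615), so its direction depends on that correction. CD40LG stood at 173, 173 and 159 CPM in DOX, against 146, 142 and 181 CPM in DMSO. The third DMSO sample was above all DOX samples, and the log2 fold change was 0.10 (SE 0.066, edgeR adjusted p = 0.247). Without that DMSO replicate 3 it was 0.22 (SE 0.054, edgeR adjusted p = 0.00230), and with the correction 0.27 (SE 0.066, edgeR adjusted p = 0.00589).

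TNFSF9, the ligand of the costimulatory receptor TNFRSF9, had 31, 26 and 34 counts in DOX and 22, 21 and 14 in DMSO. The groups did not overlap, but the log2 fold change of 0.54 had an SE of 0.26 (edgeR adjusted p = 0.122). TNFSF4, the OX40 ligand, and TNFSF13, the B cell factor APRIL, had log2 fold changes of 0.14 (SE 0.24) and 0.15 (SE 0.27), with overlapping groups near 1 CPM (edgeR adjusted p = 0.694 and 0.723). A read-through gene, TNFSF12-TNFSF13, shares 55.5% of the exon bases of TNFSF13 and 29.4% of those of TNFSF12, so counts of both are uncertain. The read-through gene itself held a mean of 0 counts in DOX and 0 in DMSO.

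Among death domain receptors TNFRSF1A stood at 114, 112 and 115 CPM in DOX, against 101, 110 and 107 CPM in DMSO. All DOX values were above the DMSO values, with a log2 fold change of 0.10 (SE 0.051, edgeR adjusted p = 0.131). It passed with upper-quartile scaling (0.15, edgeR adjusted p = 0.0275) and when scaled by library size alone (0.15, 0.0289), scalings that moved the median of all tested genes to 0.05 and 0.04. TNFRSF21, the death receptor DR6, stood at 29.3, 27.3 and 28.4 CPM in DOX, against 30.9, 31.3 and 29.1 CPM in DMSO, with overlapping groups (-0.10, SE 0.063, edgeR adjusted p = 0.231). FAS, which triggers apoptosis when bound by FASLG, was at 1.94 ± 0.129 CPM in DOX and 1.91 ± 0.264 CPM in DMSO, or 0.02 on the log2 scale (SE 0.19, edgeR adjusted p = 0.942).

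CD27, the costimulatory receptor for CD70, was at 1.27 ± 0.281 CPM in DOX and 1.02 ± 0.262 CPM in DMSO (0.31, SE 0.25, edgeR adjusted p = 0.379). The antisense gene CD27-AS1 covers 37.0% of the exon bases of CD27 and held more counts, a mean of 239 in DOX and 195 in DMSO, and the strand setting of the counting was not given, so reads of the pair cannot be told apart. TNFRSF10C, a decoy receptor for TRAIL and the only decoy tested, had 40, 27 and 43 counts in DOX and 26, 33 and 22 in DMSO, with overlapping groups (0.31, SE 0.24, edgeR adjusted p = 0.363). The TRAIL receptors are close copies of one another, and how shared reads were assigned was not given.

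**Figure D4:**
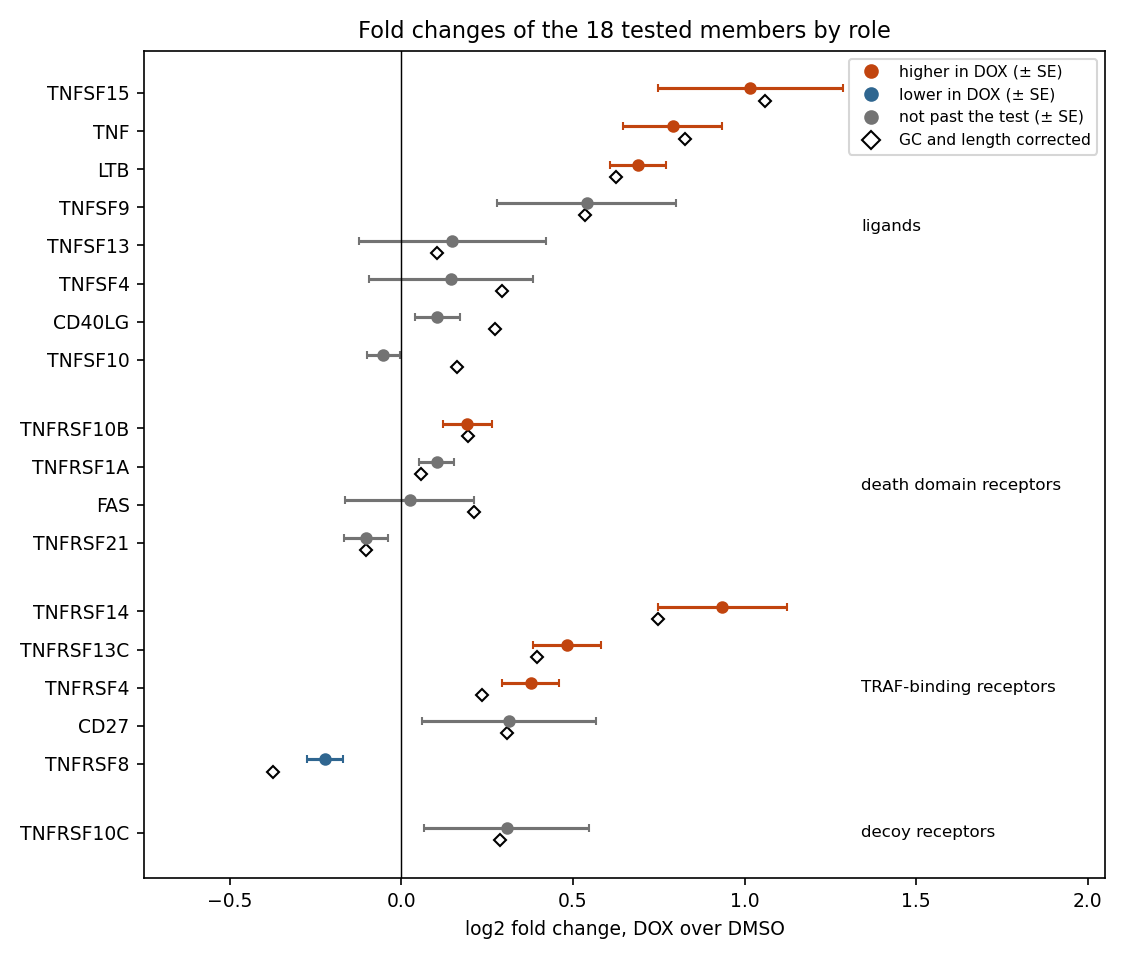
Log2 fold change of DOX over DMSO with SE for the 18 tested members, grouped by role, and the value with GC content and length corrected (open diamonds). TNFSF15, TNFRSF14, TNF and LTB lie between 0.69 and 1.02, TNFRSF8 is at -0.22, and the corrected value of TNFSF10 lies on the other side of 0.

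The 7 genes that rose were mostly rich in G and C: 6 of 7 had transcripts above the median GC content of tested genes, 48.5%, as did 13 of all 18 tested members, and TNFRSF4 had the highest of these at 69.9%. With GC content and length corrected, 9 members were higher and 1 lower, where 11.0% and 10.9% of all genes in that fit were. The 7 genes called higher and TNFRSF8 were all called in the same direction there, joined by CD40LG and TNFSF10. TNFRSF4 then rose by 0.23 and TNFRSF14 by 0.75 on the log2 scale, while TNFRSF8 fell by 0.37.

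The 16 members with counts below the filter had 33 counts or fewer over a group. TNFSF13B, the BAFF ligand, had 23 counts over the 3 DOX samples and 14 over the 3 DMSO samples, and TNFRSF1B, the TNF receptor of activated T cells, had 18 in DOX and 6 in DMSO. TNFSF12, the ligand TWEAK, had 2 in DOX and 9 in DMSO. TNFRSF17, a receptor of plasma cells, had 7 in DOX and 6 in DMSO. TNFRSF18, TNFRSF10A, TNFRSF19, TNFRSF11A and CD70 had 3 to 5 counts in DOX and 1 to 5 in DMSO. LTBR, TNFRSF25, TNFRSF12A, TNFSF14, TNFRSF9 and TNFSF18 had 1 to 3 counts in DOX and 0 in DMSO. With no filter on low counts, 0 of these 16 passed by edgeR and 0 had an unadjusted p under 0.05; TNFRSF1B came closest, with an unadjusted p of 0.0587 and an edgeR adjusted p of 0.239.

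CD40, FASLG, TNFRSF10D, TNFRSF11B, TNFRSF13B, TNFRSF6B, TNFSF11 and TNFSF8 had 0 counts in all 6 samples. A count of 0 allows up to 0.0378 CPM over the 3 DOX samples and 0.0415 CPM over the 3 DMSO samples, 3 counts of each group's total, for counting error only. For TNFRSF6B the 0 is uncertain, because the read-through gene RTEL1-TNFRSF6B covers 100% of its exon bases and held a mean of 201 counts in DOX and 177 in DMSO.

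Set out as 29 known ligand and receptor pairs, 4 had both partners tested. These were TNF with TNFRSF1A, TNFSF4 with TNFRSF4, and TNFSF10 with TNFRSF10B and with TNFRSF10C. In 10 pairs the ligand alone was tested, as for CD40LG, whose receptor CD40 had 0 counts, LTB, whose receptor LTBR had 3 counts in DOX and 0 in DMSO, and TNFSF15 with TNFRSF25. In 6 pairs the receptor alone was tested, as for TNFRSF8 and FAS, whose ligands TNFSF8 and FASLG had 0 counts, TNFRSF13C with TNFSF13B, TNFRSF14 with TNFSF14 and CD27 with CD70. In 9 pairs neither was tested. Of the called members, TNF and TNFRSF4 and TNFRSF10B thus had a tested partner, and none of those partners passed the test.

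The naming rule leaves out 5 related genes, of which 3 were tested. NGFR, the low-affinity neurotrophin receptor, rose by 0.96 on the log2 scale (SE 0.21, edgeR adjusted p = 0.00135), at 2.37 ± 0.464 CPM in DOX and 1.21 ± 0.243 CPM in DMSO. RELT rose by 0.17 (SE 0.065, edgeR adjusted p = 0.0486), and with GC content and length corrected it was at 0.0077 (edgeR adjusted p = 0.944). EDA, the ligand ectodysplasin, fell by 0.34 (SE 0.12, edgeR adjusted p = 0.0352). EDAR had 6 counts in DOX and 7 in DMSO, and EDA2R had 0 in both.

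Of 37 genes that carry signals from these receptors, 36 were tested, 6 rose and 2 fell by edgeR, with a median log2 fold change of 0.0052. The number that rose is near the 13.8% of all tested genes and the number that fell is under their 15.5%. TNFAIP3, the deubiquitinase A20 that restrains NF-kappaB after TNF, rose by 0.31 (SE 0.065, edgeR adjusted p = 0.000815), at 31.2 ± 1.49 CPM in DOX and 25.1 ± 1.02 CPM in DMSO. The adaptor TRADD rose by 0.31 (SE 0.098, edgeR adjusted p = 0.0173), RBCK1, a part of the linear ubiquitin ligase complex, by 0.22 (SE 0.055, edgeR adjusted p = 0.00442), and SPPL2B, a protease that cleaves TNF stubs in the membrane, by 0.18 (SE 0.048, edgeR adjusted p = 0.00560). BID, which links caspase-8 to mitochondria, fell by 0.26 (SE 0.069, edgeR adjusted p = 0.00575) and the kinase CHUK by 0.21 (SE 0.059, edgeR adjusted p = 0.00891). MLKL, the effector of necroptosis, did not pass at -0.17 (SE 0.066, edgeR adjusted p = 0.0590). With GC content and length corrected, TRADD (0.20, edgeR adjusted p = 0.100), RBCK1 (0.06, 0.327), SPPL2B (-0.00062, 0.993) and CHUK (-0.06, 0.516) no longer passed, and TNFAIP3 and BID did, at 0.31 and -0.21. In that fit 2 signalling genes were called higher and 2 lower, the others being CASP10 (0.24, edgeR adjusted p = 0.00660) and TRAF3 (-0.18, 0.00591). Uncorrected, CASP10 also rose (0.23, edgeR adjusted p = 0.0118), whereas TRAF3 did not pass (-0.03, 0.598). TRADD also did not pass without DOX replicate 1 (edgeR adjusted p = 0.105), without DMSO replicate 3 (0.119) or under DESeq2 (0.0637), nor CHUK without DMSO replicate 1 (0.0625).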

How the data were processed

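The members, the gene lists and the alternatives were chosen with earlier results of these data known. The authors deposited whole-number read counts per gene, not normalized. STAR 2.5.2a, featureCounts and DESeq2 1.12.4 are named, with no roles, per the submitters' processing notes, as is the build hg19. Libraries were stranded and paired-end, per the labels' protocols; which annotation and strand setting the counting used is not given in the sources used here. A second deposited table gives, for each gene of the authors' own DESeq2 run, a normalized signal averaged over samples, a Wald score, a raw and an adjusted p-value, and the log2 fold change with its standard error.

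Counts were filtered with filterByExpr defaults (15492 genes, at least 99.88% of each library's counts), scaled with TMM, and compared with the quasi-likelihood test of edgeR 4.0.16 under R 4.3.3, on treatment alone, Benjamini-Hochberg adjusted over all tested genes; the script was tested on simulated data. SE is the size of the log2 fold change over the square root of F. For the correction, splines with 5 degrees of freedom of GC content and of log2 length of the longest GENCODE 29 transcript were fitted per library and entered as an offset (15036 genes). Alternatives were DESeq2 1.42.0, its size factors, upper-quartile scaling, library size alone, no filter, the correction, the replicate block and each sample left out. Named are all members, and of the signalling list the called genes with a log2 change of at least 0.25 and the 3 smallest p in each direction. CASP10 and TRAF3 are named as well, as genes called with the correction. A further marker of the B cell list is not reported here.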

Additional observations from a re-analysis of the deposited data

How the results depend on the processing

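Of 14 alternatives, all 14 called LTB, TNF, TNFSF15, TNFRSF14, TNFRSF13C, TNFRSF4 and TNFRSF8 in the same direction, with edgeR or DESeq2 adjusted p up to 0.0461, for TNFSF15. TNFRSF10B was called in 5 of the 14. Deviations of same-numbered samples correlated at -0.06, -0.23 and 0.09, and those of differently numbered samples at -0.28 to 0.32. Pairing by replicate number was thus not visible, but 3 samples per group cannot decide whether samples were paired. With the replicate block 6 members were higher and 1 lower, TNFRSF10B being lost (0.19, edgeR adjusted p = 0.0631), and no other member's call changed. With the block and the GC and length correction 8 members were higher and 1 lower. Signalling genes called higher numbered 2 with the correction and 2 with it and the block, against 6. Those called lower ranged from 1 to 4 when 1 sample was left out, with 1 without DMSO replicate 1 and 4 without DMSO replicate 2. Sign reversed for TNFSF10 with the correction (0.16, and 0.16 with the block), for SPPL2B likewise (-0.00062 and -0.00077), and for FAS, with no call, over the 6 fits that left out 1 sample (-0.069 to 0.13). The cause was not tested. Members near 1 CPM had SE of about 0.24 to 0.27 on the log2 scale, so changes of the size seen for TNFRSF4 would not be detectable there at this depth.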
